A study of Mus musculus with 2 samples.

Results

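Phospholipid flippases and scramblases are the proteins that set on which side of a cell membrane each phospholipid lies. The 8 genes described here, Atp8a1, Atp11a, Atp11b, Tmem30a, Plscr1, Plscr3, Ano6 and Xkr8, were listed by name, and every probe set (a group of short probes for 1 transcript) that the platform annotation gives to 1 of them was taken. They had 24 of the 45037 probe sets of the array, and they are 8 of the 18193 genes that have a probe set with a single symbol. The RNA was that of spleen cells sorted from C57BL/6 mice bearing hepatocellular carcinoma, the main cancer of the liver. One sample held Ter119-positive, CD45-negative cells, where Ter119 marks the red cell lineage and CD45 the white cells. The control held CD45-positive cells of the same tumour-bearing mice, and its gate is not described with regard to Ter119. Neither sample came from a tumour-free mouse, the strain is the only genetic detail that the labels give, and neither the age nor the number of mice, nor whether mice were pooled, is stated there. Each group had 1 array, so no difference between the groups could be tested, and no error over replicates exists for any value below.

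In a resting cell, phosphatidylserine and phosphatidylethanolamine are held on the inner side of the plasma membrane. Flippases, which are P4-type ATPases bound to a CDC50 subunit, move them inward at the cost of ATP, while scramblases let lipids pass both ways when calcium or a caspase switches them on. Phosphatidylserine on the outside marks dying and aged cells, red cells among them, for uptake by macrophages, and on platelets it serves as the surface on which clotting factors assemble.

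The bases just before the start of 3 of the genes are shown because Atp8a1 had, by the brightest probe set of each gene, the highest difference of the 8 genes between the samples, and Ano6 and Plscr1 the lowest among the genes measured in both arrays. RefSeq windows on build GRCm38.p6 existed for 7 of the 8 genes. Each run gives the 250 bases before the start, 5′ to 3′ on the gene's strand. Atp8a1 is on the minus strand (chr5:67847432-67847681), and Ano6 (chr15:95790593-95790842) and Plscr1 (chr9:92249944-92250193) are on the plus strand. Capitals mark matches, on either strand, to 4 motifs: AGATAA or TGATAA (letters bound by GATA factors), CACCC (letters of Klf1 sites), GAGGAA (letters bound by PU.1, a factor of myeloid and B cells) and GGGCGG (the GC box).
Atp8a1: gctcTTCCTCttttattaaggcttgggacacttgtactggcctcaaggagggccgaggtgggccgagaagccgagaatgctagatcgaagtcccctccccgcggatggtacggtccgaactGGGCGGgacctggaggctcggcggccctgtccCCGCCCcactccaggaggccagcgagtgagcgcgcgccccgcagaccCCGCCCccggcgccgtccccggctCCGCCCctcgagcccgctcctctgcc
Ano6: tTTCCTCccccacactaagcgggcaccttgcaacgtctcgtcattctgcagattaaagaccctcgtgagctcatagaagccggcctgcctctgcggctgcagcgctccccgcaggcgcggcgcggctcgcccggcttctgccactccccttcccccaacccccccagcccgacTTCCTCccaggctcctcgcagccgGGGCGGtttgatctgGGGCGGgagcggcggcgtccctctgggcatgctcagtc
Plscr1: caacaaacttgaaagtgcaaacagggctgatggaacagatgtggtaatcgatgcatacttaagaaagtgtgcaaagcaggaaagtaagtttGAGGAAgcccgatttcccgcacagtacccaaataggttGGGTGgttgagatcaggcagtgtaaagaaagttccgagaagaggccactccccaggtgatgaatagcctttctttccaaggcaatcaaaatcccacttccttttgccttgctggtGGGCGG

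No match overlapped one of another motif in these windows. Atp8a1 held 4 GC boxes and 1 GAGGAA, Ano6 held 2 of each, and Plscr1 held 1 CACCC, 1 GAGGAA and 1 GC box. Among the 7 genes, counting a gene with several starts when any of its windows had a match, the GATA letters lay before Tmem30a alone, CACCC before 5 genes, GAGGAA before 4 and the GC box before 6. Over all 32851 RefSeq windows of the same length, the shares with a match were 16.6% for the GATA letters, 52.0% for CACCC, 23.3% for GAGGAA and 32.7% for the GC box. A match describes the letters, not a site in use.

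Across the 8 genes, 6 were dimmer and 2 brighter in the CD45-negative cells than in the CD45-positive cells. Of all 11793 genes measured by the rule given below, 6686 were dimmer and 5107 brighter. The brighter ones were the flippase Atp8a1 and the mitochondrial scramblase family gene Plscr3, both by less than 2-fold as deposited and by more under some alternatives given below. Among the genes measured in both arrays, the lowest difference was that of Ano6, the calcium-activated scramblase, at 170.5 against 710.0, which is 4.16-fold lower. All values are deposited intensities in arbitrary units. A difference is the log2 value of the CD45-negative cells less that of the CD45-positive cells, so it is above 0 where the CD45-negative cells were brighter. A gene counted as measured where its intensity lay above 101.1, the 95th percentile of 80 probe sets for smell and pheromone receptors, which stand for silent genes. By this rule all 8 genes were measured, 6 in both arrays and 2, Atp11a and Xkr8, in the CD45-positive array only. With the level applied, these 2 could only come out dimmer.

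The median difference of the 8 genes was -1.02, beside -0.26 over all 11793 measured genes. At a 4-fold threshold, 1 of the 8 genes (Ano6) was lower and 0 higher, where 16.8% of all measured genes were lower and 8.31% higher. At 2-fold, Ano6, Plscr1, Atp11a and Atp11b were lower, 4 of 8 genes, and 0 were higher, where 33.3% of all measured genes were lower and 16.8% higher. The 2-fold call of Atp11a rests on a bound and is lost at -0.85 when the level is raised to the 99th percentile of these probe sets, and that of Atp11b is lost at -0.83 once the arrays are centred. On the other side, Atp8a1 passed 2-fold upward at 1.13 after centring and 1.12 after quantile normalization, and Plscr3 at 1.24 after quantile normalization and 1.04 averaged over probe sets. Removing the median of -0.26, which is that of measured genes with the detection level applied, moved Ano6 to -1.80 and under the 4-fold threshold. After this, 6 genes stayed below 0 and 2 above it, which a shift of this size could not have changed. Over all probe sets the CD45-negative and CD45-positive arrays had medians of 85.1 and 87.8. Without a detection level, the median difference over 18193 genes was 0.02.

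**Figure D1:**
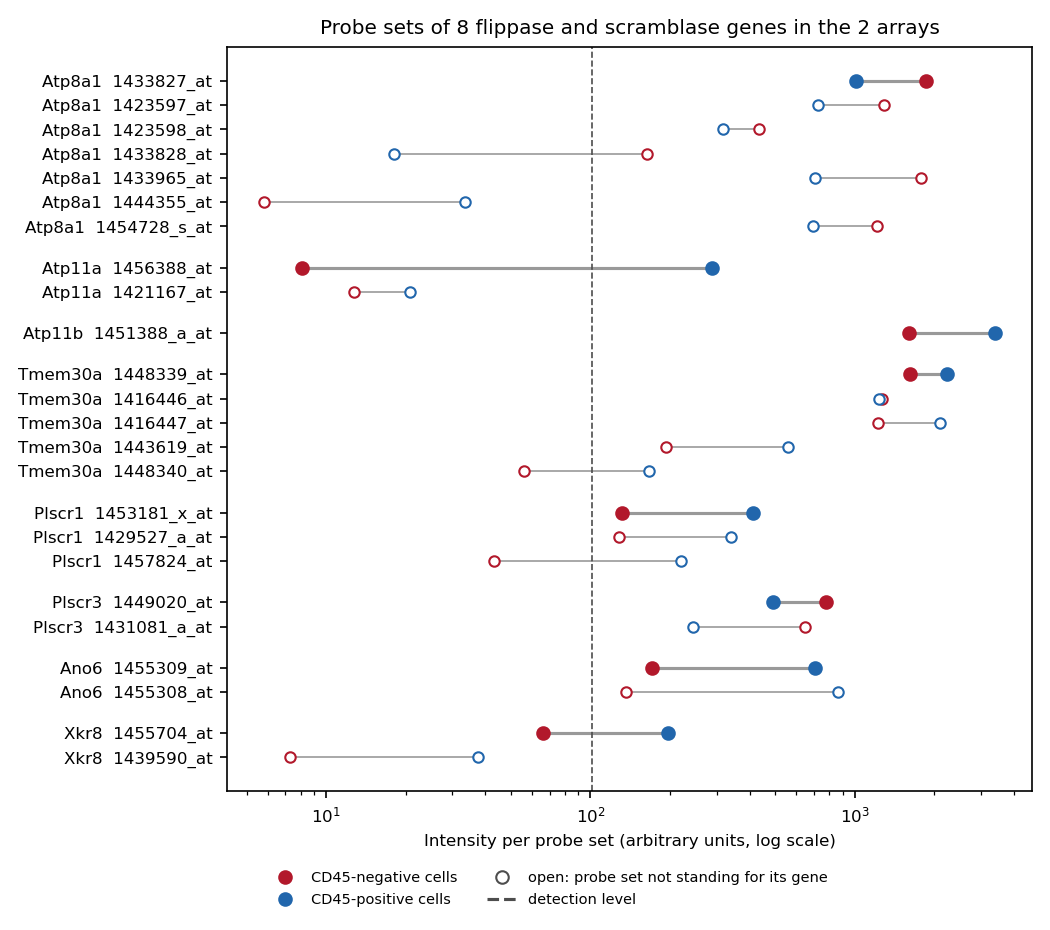
Intensity of the 24 probe sets of the 8 genes (rows) in the CD45-negative (red) and CD45-positive (blue) array, on a log axis in arbitrary units. Filled points are the probe set that stands for its gene, open points the others, and the dashed line is the detection level of 101.1. Red lies right of blue in 6 of 7 Atp8a1 rows and both Plscr3 rows, and left of blue in every row of Atp11a, Atp11b, Plscr1, Ano6 and Xkr8. The 3 rows with both points under the level, of Atp8a1, Atp11a and Xkr8, have no reliable order.

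Atp8a1 encodes a P4-ATPase that moves phosphatidylserine inward and is known from red cell membranes. Its brightest probe set stood at 1854.5 in the CD45-negative cells against 1011.0 in the control, a difference of 0.88 (1.83-fold). The gene had 7 probe sets, of which 6 were above the detection level in at least 1 array, and all 6 of these were brighter in the CD45-negative cells. The 5 measured in both arrays ran from 0.45, at 433.6 against 316.7, to 1.33, at 1784.4 against 707.7. The sixth stood at 163.9 against 18.0, the latter under the level. The last one pointed the other way, at 5.8 against 33.5, but both values were under the level. With values under the level set to the level, the 6 had a mean difference of 0.83 ± 0.29 (SD over probe sets, which is not replicate error).

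Atp11a, whose product flips phosphatidylserine at the plasma membrane and is cut by caspases in dying cells, was at 8.1 in the CD45-negative cells and 288.7 in the CD45-positive cells. The first value lay under the detection level, so the gene was at least 2.27-fold lower, a bound taken against 127.2, the level that the CD45-negative array alone would give. The ratio of the deposited values would be far larger, but values so far under the level have no reliable order. Its other probe set read 12.7 against 20.8, both under the level. Atp11b, a related flippase, had a single probe set, at 1607.6 against 3405.3, which is 2.12-fold lower. Both Atp11 genes were therefore dimmer in the CD45-negative cells, opposite in sign to Atp8a1. Whether the differences of these genes differ from each other could not be tested with 1 array a group.

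Tmem30a encodes CDC50A, the subunit with which most P4-ATPases must pair to leave the endoplasmic reticulum. Its brightest probe set read 1612.9 in the CD45-negative cells and 2242.3 in the CD45-positive cells, a difference of -0.48. Its 5 probe sets did not share a sign: 4 were lower and 1 was level, at 1272.9 against 1236.1. The differences ran from -1.57 to 0.04, and with values under the level set to it their mean was -0.69 ± 0.57 (SD over probe sets). The gene lay well above the level in both samples. The SD between probe sets of 1 gene, pooled over 5474 genes, was 0.83. By the brightest probe set, the differences of Tmem30a (-0.48) and Plscr3 (0.67) were smaller in size than this spread, and that of Atp8a1 (0.88) was close to it.

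Ano6, also called TMEM16F, is the calcium-activated scramblase that exposes phosphatidylserine on activated platelets and is mutated in Scott syndrome, a bleeding disorder. Both of its probe sets were lower in the CD45-negative cells. The one with the higher mean log2 value, which stands for the gene, gave 170.5 against 710.0 and the other 136.0 against 865.3, differences of -2.06 and -2.67 (4.16-fold and 6.36-fold lower). Their mean was -2.36 ± 0.43 (SD over probe sets). Both CD45-negative values lay above the level of that array. Quantile normalization reduced the difference from -2.06 to -1.40.

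Xkr8 encodes the scramblase that caspases switch on in apoptosis. It stood at 65.9 in the CD45-negative cells, under the level, against 196.4 in the control, at least 1.54-fold lower. Its second probe set read 7.3 against 37.6, both under the level. Xkr8 was therefore measured in the white cell control only, close to the level.

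The Plscr genes bear the name of phospholipid scramblase, although the role of their products at the cell surface is disputed. Plscr1, which interferon induces, read 131.6 against 412.0 by its brightest probe set, 3.13-fold lower in the CD45-negative cells. Its other probe sets gave 128.3 against 340.8 and 43.0 against 219.6, so all 3 were lower, from -2.35 to -1.41. The brightest CD45-negative value exceeded the level of its own array, 127.2, by little. Plscr3, whose product lies in mitochondria, went the other way in both of its probe sets. It read 777.3 against 490.2 (1.59-fold higher) and 650.5 against 245.4 (2.65-fold higher). The mean was 1.04 ± 0.52 (SD over probe sets).

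Counted over probe sets, 21 of the 24 were above the level in at least 1 array. Of these, 9 were brighter and 12 dimmer in the CD45-negative cells, and the 9 comprised 6 of Atp8a1, 2 of Plscr3 and 1 of Tmem30a. Probe sets of 1 gene share their RNA and their array and are not replicates.

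**Figure D2:**
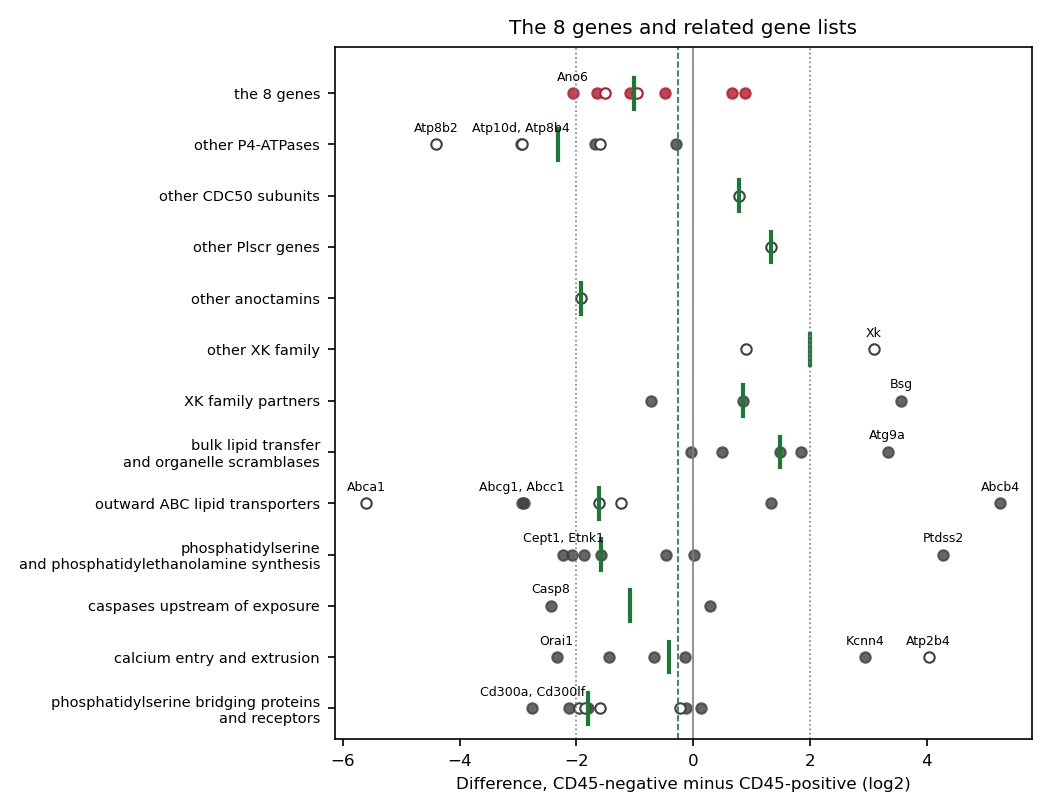
Differences (log2, CD45-negative minus CD45-positive) of the 8 genes (top row, red) and of related gene lists, 1 point per measured gene. Open points have 1 value set to the detection level, green bars are list medians, the dashed green line is the median of all measured genes (-0.26), and dotted lines mark 4-fold. The 8 genes lie between -2.06 and 0.88, while Abcb4, Ptdss2 and Atp2b4 lie above 4 and Abca1 below -5.

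Genes of the related lists, which also hold upstream signals and receptors, ran from -5.6 to 5.26, and all measured genes from -7.46 to 7.25. These sets are larger than the 8 genes, and a range widens with the number of genes. Over the related lists, 72 of 82 genes were analysed and 50 measured, of which 7 passed 4-fold upward and 12 downward, and their median was -0.70. Of 12 other P4-ATPases, 10 were named on the array and 6 measured. All 6 were dimmer in the CD45-negative cells, as were 6686 of all 11793 measured genes. Of the 6, 3 were dimmer by 4-fold or more, and the median was -2.31, or -1.21 averaged over probe sets. Atp8b2, Atp8b4 and Atp10a were above the level in the CD45-positive array only, so they could only come out lower. Atp9a, at 127.0 against 155.5, was the nearest to 0 and changed sign to 0.15 after quantile normalization. Atp10d, a flippase family member, stood at 237.5 against 1835.1 (7.73-fold lower). Atp8b2 stood at 101.1 against 2136.7 (at least 16.8-fold lower) and Atp8b4 at 72.2 against 772.6 (at least 6.07-fold lower), but averaged over probe sets their differences were -1.47 and -1.21. Atp9b stood at 282.2 against 906.8, under the threshold. Whether these genes differ from Atp8a1 was not tested.

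Of the other subunit and scramblase relatives, few were measured. Tmem30c, a CDC50 subunit known from testis, read 174.2 against 97.0, the latter under the level (at least 1.72-fold higher). Plscr4 read 256.5 against 63.2 (at least 2.54-fold higher). Ano10 was the only other anoctamin measured, of 6 named, at 51.2 against 382.7 (at least 3.01-fold lower). Xk, a relative of Xkr8 whose product carries the Kx blood group antigen, was at least 8.50-fold higher, at 859.1 against 20.6. Quantile normalization brought its difference to 1.91. Xkr5 read 190.1 against 90.9, the latter under the level (at least 1.88-fold higher). With the level at the 99th percentile, the differences of Tmem30c and Xkr5 fell to 0.12 and 0.25.

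Bsg, which encodes basigin, a partner that carries Xkr8 to the cell surface, read 38256.3 against 3236.1, 11.8-fold higher in the CD45-negative cells. Nptn, for a related partner, read 9322.0 against 5133.9 (a difference of 0.86), and Vps13a, whose product transfers lipids and binds Xk, read 280.2 against 460.7. So the partner Bsg was far brighter in the sample in which Xkr8 was under the level. Among scramblases of internal membranes and lipid transfer proteins, 5 of 7 were measured and 1, Atg9a of the autophagosome, passed 4-fold, at 3277.6 against 325.8 (10.1-fold higher). Tmem41b and Vmp1, scramblases of the endoplasmic reticulum, had differences of 1.85 and 1.48, and Vps13d 0.49. Tmem41b passed 4-fold at 2.29 after quantile normalization and 2.11 after centring.

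Outward transporters of the ABC family, which carry lipids to the outer side, lay at both ends. Abcb4, which exports phosphatidylcholine into bile in the liver, read 11881.2 against 310.7 (38.2-fold higher). Abca1, which hands phospholipid and cholesterol to apolipoproteins, read 97.8 against 4911.3 (at least 38.6-fold lower, and a difference of -3.67 averaged over probe sets). Abcg1 (172.4 against 1310.4, 7.60-fold) and Abcc1 (122.0 against 910.4, at least 7.16-fold) were lower as well. The list of 7 had 1 gene higher, 3 lower and a median of -1.61. Abca1, Abcb1a and Abcb1b were above the level in the CD45-positive array only, so they could only come out lower. The median was -0.94 with the level at the 99th percentile and -2.9 without a level.

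Genes that make the 2 lipids held inside lay on both sides. Of 7 measured, 5 were below 0, as were 6686 of all 11793 measured genes, and 1 of these 5, Pcyt2, changed sign to 0.10 after quantile normalization. By 4-fold 1 was higher and 2 were lower, the median was -1.58, and the summed intensity was 21040 against 16050. Ptdss2, which makes phosphatidylserine from phosphatidylethanolamine, read 16733.0 against 861.7 (19.4-fold higher). Ptdss1, which makes it from phosphatidylcholine and was named after its values were seen, read 417.7 against 1250.9 (a difference of -1.58). Cept1 and Etnk1, of phosphatidylethanolamine synthesis, read 760.2 against 3573.7 and 1575.2 against 6661.8. Their differences of -2.23 and -2.08 fell short of 4-fold once the arrays were centred, at -1.98 and -1.82. Pisd, which makes phosphatidylethanolamine in mitochondria, had a difference of -1.87.

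Upstream signals were measured in part. Of the caspases, Casp8 read 756.2 against 4102.1 (5.43-fold lower) and Casp9 890.9 against 734.4, and 2 other listed caspases were not analysed here. Of 8 calcium genes, 6 were measured, 2 higher and 1 lower by 4-fold. Kcnn4, the calcium-activated potassium channel of red cells, read 20329.0 against 2625.0 (7.74-fold higher), and the calcium pump gene Atp2b4 read 1655.7 against 36.3 (at least 16.4-fold higher). Orai1, a calcium entry channel, read 130.5 against 660.6 (a difference of -2.34, and -1.50 averaged over probe sets and -1.77 after quantile normalization), and the pump gene Atp2b1 had a difference of -1.44.

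Genes for proteins that recognise exposed phosphatidylserine came next. Of 14, 9 were measured, 8 of them below 0, as were 6686 of all 11793 measured genes. By 4-fold 2 were lower and 0 higher, and the median was -1.81. Havcr1, Axl, Mertk and Cd300lb were above 101.1 in the CD45-positive array only, so by that level they could only come out lower. Havcr1 changed sign from -0.22 to 0.11 with a level for each array. Pros1 changed from -0.12 to 0.24 after quantile normalization and 0.13 after centring. Cd300a and Cd300lf, receptors of myeloid cells, read 148.8 against 1011.0 and 149.3 against 655.0. The difference of Cd300a was -2.76, or -1.38 averaged over probe sets, and that of Cd300lf was -2.13, or -1.51 after quantile normalization and -1.88 after centring. The receptor kinase genes Axl and Mertk were under the level in the CD45-negative array, at 91.1 and 61.7, against 392.4 and 366.6 (at least 3.08-fold and 2.88-fold lower).

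Most markers of the sorted cells differed more than any of the 8 genes did. Ptprc, which encodes CD45, read 422.7 against 32146.9, and Tfrc, the transferrin receptor gene of red cell precursors, read 64929.7 against 4433.2. The 8 measured red cell markers all passed 4-fold upward (median 5.78, summed intensity 367400 against 10830), and the 8 general white cell markers all passed it downward (median -5.56, summed intensity 4517 against 177500). Among 7 platelet markers, 6 passed 4-fold upward, with a summed intensity of 35110 against 1654, while Ano6, a scramblase of platelets, was lower. Among 9 macrophage and dendritic cell markers, 8 passed it downward, with a summed intensity of 1567 against 17670. The summed B cell, T cell and neutrophil markers stood at 1914 against 98670, 617.2 against 33120 and 4067 against 129000. All 7 B cell and all 7 T cell markers measured passed 4-fold downward. Of 7 neutrophil markers 5 did, while Elane and Mpo had differences of -1.21 and -0.92. The 5 natural killer markers measured all passed 4-fold downward. Stromal markers (1 of 8 measured) and liver and tumour markers (3 of 8 measured) lay at or near the level, with 0 past 4-fold. None of these markers was listed at 0. In such bulk samples, fewer cells of a type and less RNA per cell cannot be told apart, and the part of cell makeup in the differences of the 8 genes was not tested.

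By the 2 log2 intensities, and over 8271 other genes measured in both arrays, the genes nearest to Atp8a1 were Mbnl3 (1856.1 against 1014.7), Tbpl1 (1899.4 against 1005.5) and Setd3 (1919.8 against 1017.2). Those nearest to Ano6 were Gprasp1 (171.8 against 704.3), Abhd17c (172.5 against 715.4) and Agps (166.4 against 705.9). With only 2 values per gene, this likeness describes position and nothing more.

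**Figure D3:**
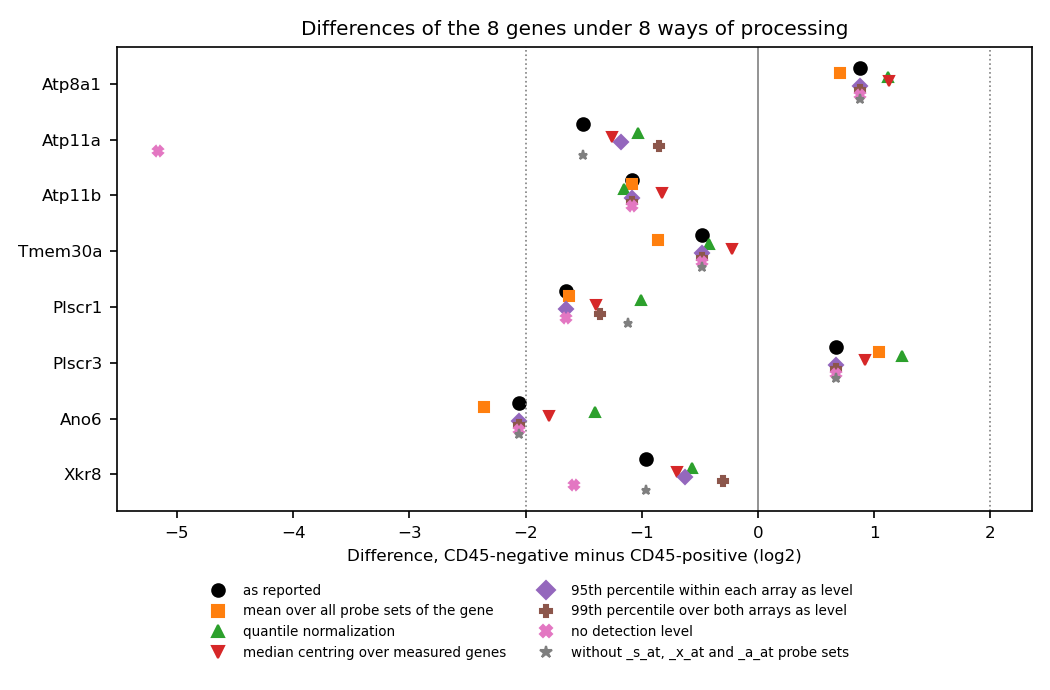
Difference (log2, CD45-negative minus CD45-positive) of each of the 8 genes under 8 ways of processing, with the reported value as a black circle; dotted lines mark 4-fold. Atp8a1 and Plscr3 stay above 0 and the other genes below 0 in every setting that gave a value, while Atp11a runs from -5.16 without a detection level to -0.85 with the highest one. Centring and the choice of level could not have reversed most of these signs.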

How the data were processed

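Biotinylated cRNA was made from 500 ng of total RNA for Affymetrix 3' arrays, per the labels' protocols. The authors deposited 1 linear intensity per probe set and array. The submitters' processing notes name GCRMA and Partek 6.6 with no role for either. The deposited intensities of the CD45-negative and CD45-positive arrays had near-equal 2%-trimmed means of 494.1 and 496.9, before any rescaling here. Their minima were 0.5 and 0.1. Which step made these intensities is not settled. They come with no detection or saturation calls.

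Their log2 was taken as deposited, without a pseudocount or any rescaling. The probe set with the highest mean of both arrays stood for its gene. A value at or under the detection level was set to that level, and the difference is then a bound. A bound for a single gene dim in the CD45-negative array uses 127.2, and one for a gene dim in the CD45-positive array 101.1. Of 45037 probe sets, 34945 had 1 symbol, 932 had several and 9160 had none. Only those with 1 symbol were used.

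The members and lists were chosen with earlier results of these data known. Named genes were the 8 members, up to 4 measured genes per related list with the largest differences, those 4-fold against their list's majority, Ptprc, Tfrc and the 3 nearest genes of 2 members. Atp9a, Atp10a, Pcyt2, Ptdss1, Cd300lb, Havcr1 and Pros1 were named after their values were seen. No test was possible with 1 array per group, and the number of arrays limits the precision. Alternatives were another rule for probe sets, 2 scalings, 3 detection levels, a probe set filter and a 2-fold threshold. Scripts were tested on simulated data. The software was pandas 2.3.3 and numpy 2.4.6 under Python 3.11.15. Trimmed means and the ranks of quantile normalization used scipy 1.17.1, and plots used matplotlib 3.10.9.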

Additional observations from a re-analysis of the deposited data

How the results depend on the processing

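No paired analysis was possible because each group had 1 array. The count of the 8 genes at least 4-fold different was 1 as reported. It was 0 after quantile normalization and 0 after median centring, 2 without a detection level (Ano6 and Atp11a), and 4 at a 2-fold threshold. In the related lists 19 of 50 measured genes passed 4-fold as reported, 37 of all 72 without a detection level and 35 of 50 at a 2-fold threshold. Over all genes, 980 were higher and 1979 lower of 11793 measured as reported. Without a level they were 2885 and 3293 of 18193, and at 2-fold 1976 and 3922 of 11793. Quantile normalization gave 1082 and 1483 of 11602, and centring 1128 and 1650 of 11587. The median of the 8 genes ran from -1.33 to -0.66, and no gene among them changed sign in any setting that gave it a value. Centring and the choice of level could not have reversed most of these signs. Of the 8 genes, Atp11a and Xkr8 had no value with the mean of probe sets, and Atp11b none without _s_at, _x_at and _a_at probe sets. The difference of Atp11a was -5.16 without a detection level. Values were called alike when they moved by no more than 0.83 (log2), the pooled spread of probe sets within a gene. By this measure, 443 values of single genes and list medians stayed alike and 26 moved. Many single-gene values could not have moved by more than 0.83. Centring took off only -0.26. A level leaves a gene above it in both arrays unchanged. The filter changes only genes whose chosen probe set it drops. Without replicates, none of this measures error between samples.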
